A study of Mus musculus with 12 samples.

Results

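The genes described here are those of the mouse mitochondrial genome, the circular chromosome that mitochondria carry themselves. They were taken as the rows of the deposited expression table whose chromosome is MT, which are also the rows whose symbols begin with mt-, and they numbered 13 of 35275 genes. All 13 encode proteins of the machinery that makes ATP from the oxidation of fuel. Complex I, the NADH dehydrogenase, has 7 of them (mt-Nd1, mt-Nd2, mt-Nd3, mt-Nd4l, mt-Nd4, mt-Nd5 and mt-Nd6). Complex III has 1, the cytochrome b gene mt-Cytb. Complex IV, the cytochrome c oxidase, has 3 (mt-Co1, mt-Co2 and mt-Co3), and complex V, the ATP synthase, has 2 (mt-Atp6 and mt-Atp8). The ribosomal RNA and transfer RNA genes of the same genome were not analysed here.

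RNA of 12 mouse samples labelled liver was sequenced. Per the labels, 6 mice were wild type (WT) and 6 carried a liver knockout of Hnf4a, a transcription factor of hepatocytes (KO), and each genotype was fed either vivarium chow (chow) or a high fat diet (HFD), in 4 groups of 3 samples that the series text calls biological replicates. For the mice, age, sex and the transgene that deletes the gene: not given in the sources used here. A library is named by its group and replicate number, as in WT chow 3. Hnf4a itself stood at 98.8 to 158 FPKM across the 6 KO libraries and 75.8 to 133 FPKM across 5 WT libraries, with 0.0973 FPKM in the sixth, WT chow 3. The gene's total level therefore did not separate the genotypes, which exons were deleted is not given in the sources used here, and KO and WT are used below as labels.

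Depth was 15705196 to 20311766 reads on genes per library. The liver label was checked against 10 hepatocyte markers, whose summed level was 24162 to 85679 FPKM in 11 libraries and 36.8 FPKM in WT chow 3, where all 10 were below every other library. In WT chow 3 the summed level of 9 brown fat markers was 10175 FPKM, against 36.4 to 164 FPKM in the others, and that of 9 adipocyte markers was 9966 FPKM, against 16.9 to 98.9 FPKM. WT chow 2 also stood apart, with 31.4% of the 12251 tested genes above all of the 10 libraries that remain when WT chow 2 and WT chow 3 are set aside, and 34.2% below all of them. Each result is therefore given with all 12 libraries and also with 11 (without WT chow 3) or 10 (without WT chow 2 and WT chow 3).

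As background, mitochondrial DNA is copied into RNA by its own polymerase, Polrmt, with the help of Tfam, the protein that also packs the DNA, and of Tfb2m. Both strands are transcribed as long RNAs that span nearly the whole circle. The transfer RNAs between the genes are then cut out, which frees the messenger RNAs, and the protein pair Lrpprc and Slirp keeps those messengers stable. Every protein gene but mt-Nd6 is read from the same strand. The RNA of 12 of the 13 genes starts as part of 1 kind of precursor, and that of mt-Nd6 as part of the other. Neighbouring genes can overlap on that strand: mt-Atp8 and mt-Atp6 share 43 bases, and mt-Nd4l and mt-Nd4 share 7. Neither of these pairs is parted by a transfer RNA. The remaining subunits of complexes I, III, IV and V are encoded in the nucleus. Pieces of mitochondrial DNA have also been inserted into the nuclear chromosomes in the course of evolution. A sequencing read from such a stretch matches more than 1 place in the genome.

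A nuclear copy of this kind runs through the middle of the 13 genes and bears on the levels of those that it covers. The 7 annotated pseudogenes on chromosome 1, in the stretch chr1:24611535-24616197 on the minus strand (GRCm38), carry the sequences of mt-Co1 to mt-Nd4 in the same order, over 4663 bases. In the GENCODE M21 transcripts, Gm28661 was identical to mt-Co2 over all 681 bases that it holds, Gm10925 to mt-Atp6 over 678 and Gm28437 to mt-Co3 over 783. Gm10222 was identical to mt-Nd4l over 294 bases, and Gm28438 differed from mt-Nd3 by 1 substitution, T3C, in 345 bases (positions are counted from 1 at the first base of the mitochondrial gene, whose base is written first). The first 60 bases of the mt-Co2 and mt-Nd3 pairs are shown because they are the sequences that reads of either place would have in common. Capitals mark the bases that differ. The mitochondrial pieces lie at MT:7013-7072 and MT:9459-9518 on the plus strand, and the copies at chr1:24615506-24615565 and chr1:24613060-24613119 on the minus strand.
mt-Co2: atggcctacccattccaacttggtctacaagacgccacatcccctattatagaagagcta
Gm28661: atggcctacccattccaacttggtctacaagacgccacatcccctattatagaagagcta
mt-Nd3: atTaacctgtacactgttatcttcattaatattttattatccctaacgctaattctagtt
Gm28438: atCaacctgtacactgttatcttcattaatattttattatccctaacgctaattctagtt

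The copy begins inside mt-Co1 and ends inside mt-Nd4, so those 2 genes are partly copied. Gm29216 holds bases 1054 to 1545 of mt-Co1 with 6 differences near its start (T1056A, C1057T, A1059G, A1060G, C1062A and A1066T). Gm28439 holds bases 1 to 876 of mt-Nd4 without a difference. The edges are shown next, with the mt-Co1 piece at MT:6381-6440, its copy at chr1:24616138-24616197 on the minus strand and the mt-Nd4 piece at MT:11013-11072. Capitals mark the differing bases in the first pair, and in mt-Nd4 the bases past the end of the copy.
mt-Co1: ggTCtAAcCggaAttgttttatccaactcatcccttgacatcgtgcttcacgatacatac
Gm29216: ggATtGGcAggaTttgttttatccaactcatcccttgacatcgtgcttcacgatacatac
mt-Nd4: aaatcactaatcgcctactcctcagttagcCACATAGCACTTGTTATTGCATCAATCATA

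The share of each gene that has an exact copy was counted in windows of 50 bases searched in all other annotated transcripts. It was 100% for mt-Co2, 99.9% for mt-Co3, 99.5% for mt-Atp6, 98.8% for mt-Nd4l and 98.0% for mt-Nd3. It was 62.2% for mt-Nd4 and 51.1% for mt-Co1, 8.19% for mt-Nd2 and 7.61% for mt-Nd5, and 0% for mt-Nd1, mt-Nd6 and mt-Cytb. The share of mt-Co1 includes a pseudogene on chromosome 2, Gm13340, which covers bases 1 to 1545 with 97.6% of them identical. Gm13340 shares 411 windows with mt-Co1, and Gm29216 shares 430. The short gene mt-Atp8 had no annotated copy (0%), but it lies inside the copied stretch. The 233 bases between the neighbours Gm28661 and Gm10925 equal the distance between the same positions of the mitochondrial genome, which puts the place of mt-Atp8 at chr1:24614609-24614812. The 6 genes mt-Co2, mt-Atp8, mt-Atp6, mt-Co3, mt-Nd3 and mt-Nd4l are called the copied genes below, and the other 7 the remaining genes.

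The deposited levels fell into 2 ranges that followed this division. Levels are in FPKM, fragments scaled to gene length and to the library's total, so genes of different length can be compared. In the 10 libraries without WT chow 2 and WT chow 3, the remaining genes had means from 2107 ± 519 FPKM (SD, n = 10) for mt-Nd5 to 13602 ± 1320 FPKM for mt-Co1. The copied genes had means of 75.2 ± 18.1 FPKM for mt-Co2, 65.2 ± 14.7 FPKM for mt-Co3, 59.9 ± 13 FPKM for mt-Atp6, 15.7 ± 4.37 FPKM for mt-Nd3 and 7.22 ± 2.91 FPKM for mt-Nd4l. In each of the 12 libraries the lowest of the remaining genes exceeded the highest of the copied genes, by 13.4 to 58.1 times in the 10 libraries, by 28.1 times in WT chow 3 and by 3.54 times in WT chow 2. The copied genes make up 26.3% of the summed length of the 13 genes (2998 of 11403 bases) and received 0.181% to 0.860% of their reads. How the counting treated reads with several matches is not given in the sources used here, and its part in these levels was not tested.

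**Figure D1:**
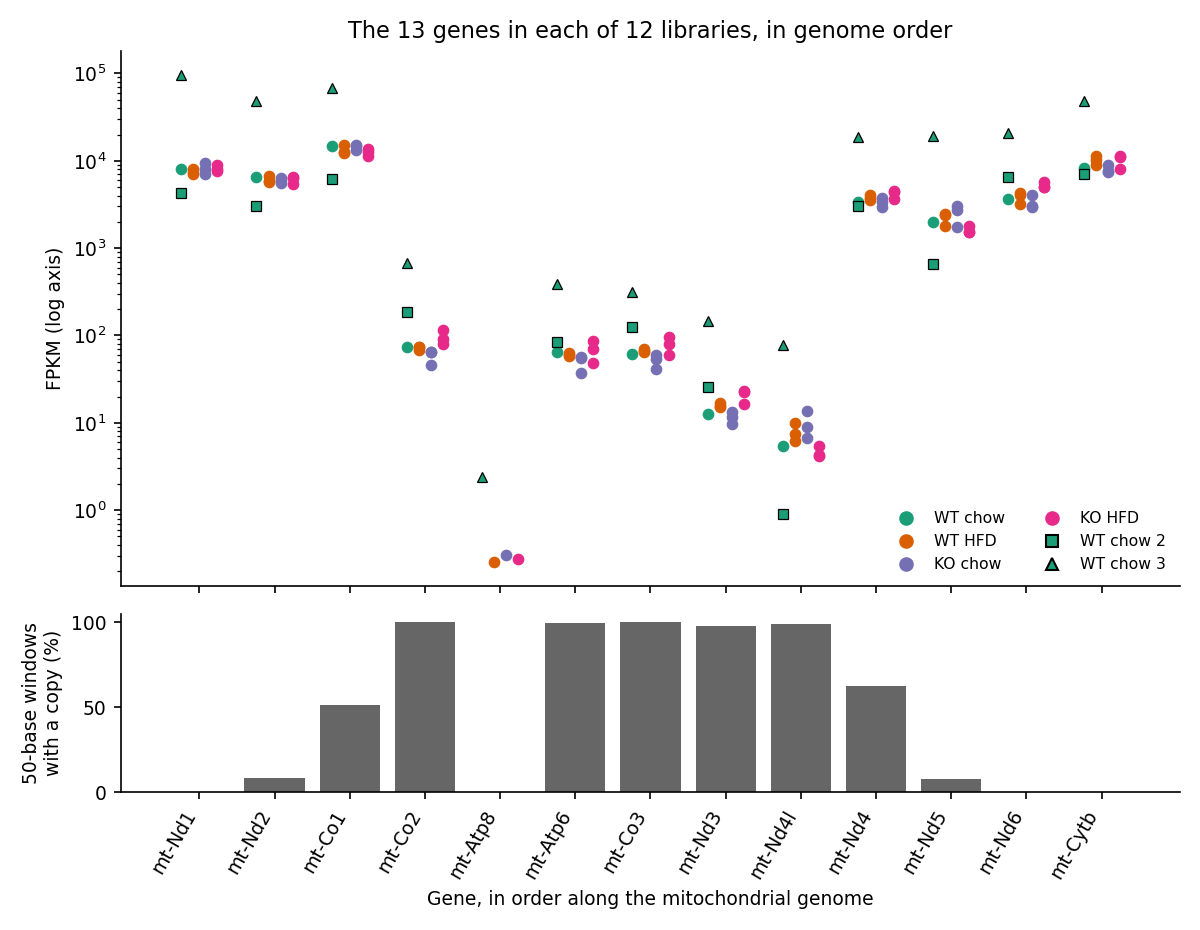
The upper panel plots FPKM on a log axis for the 13 genes in genome order, 1 point per library (values of 0 are left out), with WT chow 2 as squares and WT chow 3 as triangles; the lower panel gives the share of 50-base windows with an exact copy elsewhere. The genes with a share of 98.0% or more, and mt-Atp8 between them with a share of 0%, lie below the other 7 genes in all libraries. WT chow 3 is the highest library for every gene.

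The copied genes that have an annotated copy were compared with it. Over the 12 libraries the ratio of mt-Co2 to Gm28661 was 0.860 to 0.947 (median 0.912), and that of mt-Co3 to Gm28437 was 1.0 to 1.15 (median 1.07). For mt-Atp6 and Gm10925 it was 0.550 to 0.832 (median 0.623), and for mt-Nd4l and Gm10222 it was 0.412 to 1.28 (median 0.934). The mt-Nd3 gene, whose only difference from Gm28438 is the T3C base, had ratios of 0.101 to 0.416 (median 0.179), so that it was listed below its copy in every library. The partly copied genes were listed far above their copies, with median ratios of 132 for mt-Co1 to Gm29216 and 244 for mt-Nd4 to Gm28439. In the 5 fully copied pairs the reads listed for the gene and for the copy thus cannot be told apart by sequence over nearly all of the length, and the values of these genes below are uncertain in that sense.

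**Figure D2:**
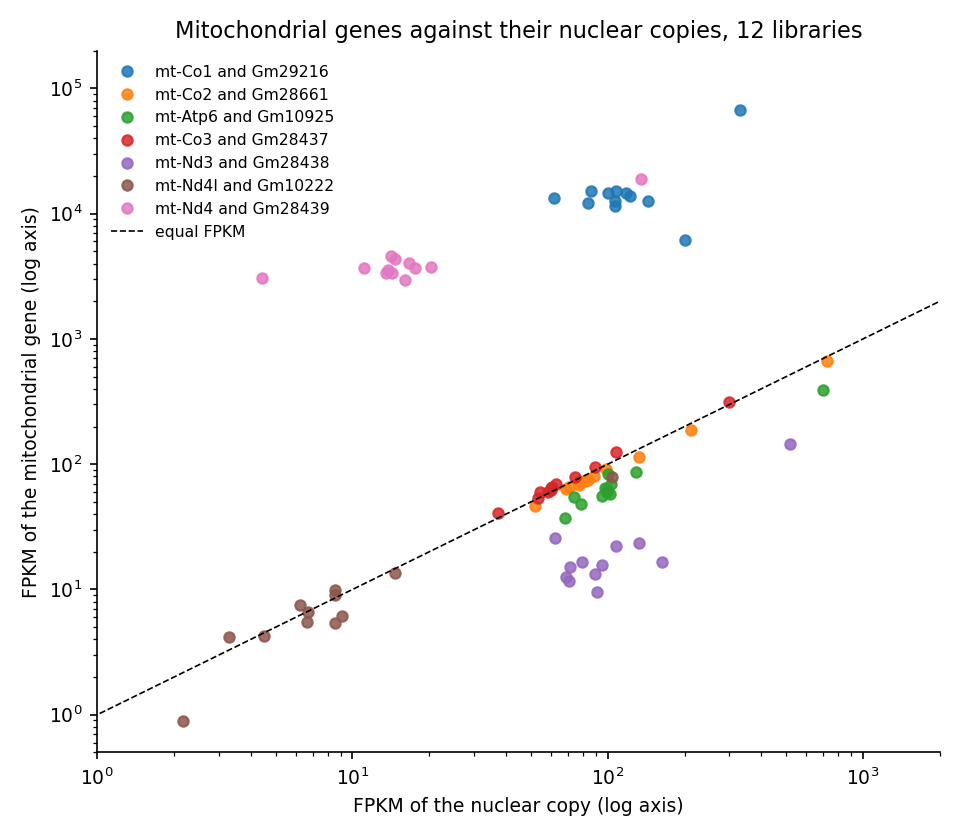
FPKM of each mitochondrial gene (vertical, log axis) against FPKM of its chromosome 1 copy (horizontal, log axis), 1 point per library and 7 pairs; the dashed line marks equal values. The pairs of mt-Co2, mt-Co3, mt-Atp6 and mt-Nd4l lie near the line, mt-Nd3 below it, and the partly copied mt-Co1 and mt-Nd4 far above it.

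Among the remaining genes the order of the means in the 10 libraries was mt-Co1, mt-Cytb (9327 ± 1553 FPKM), mt-Nd1 (7977 ± 740), mt-Nd2 (6115 ± 438), mt-Nd6 (4086 ± 905), mt-Nd4 (3735 ± 482) and mt-Nd5. The catalytic subunit of cytochrome oxidase, mt-Co1, was above mt-Cytb in all 10 libraries, and mt-Nd1 above mt-Nd2 in all 10. Neighbours in the middle were not separated in every library: mt-Cytb was above mt-Nd1 in 8 of 10 and mt-Nd6 above mt-Nd4 in 7 of 10. FPKM divides by the whole gene, copied part included. Divided by the bases outside the chromosome 1 copy only, mt-Co1 would stand at 19844 ± 1926 FPKM over 1059 bases and mt-Nd4 at 10254 ± 1323 FPKM over 502 bases (SD, n = 10), which would move mt-Nd4 from the sixth place to the second. This rescaling assumes that no read of the copied part was counted, which was not tested. It does not allow for Gm13340, the chromosome 2 copy of mt-Co1.

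mt-Nd5, the longest of the 13 genes, and the light-strand gene mt-Nd6 share 14 bases at their ends on opposite strands. The strand setting of the counting is not given in the sources used here, so reads of the long precursors that run through mt-Nd6 on the other strand cannot be told apart from reads of mt-Nd6 itself. mt-Atp8 shares 43 bases with mt-Atp6 on the same strand. It had 8 reads in WT chow 3, 1 read each in KO chow 1, KO HFD 3 and WT HFD 1, and 0 reads in the other 8 libraries, where a floor of 3 reads allows up to 0.724 to 0.936 FPKM (counting error only). It was under the filter on low values (a mean of 0.5 FPKM) and entered no test, so that 12 of the 13 genes were tested.

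WT chow 3 was the highest of all 12 libraries for each of the 13 genes. The 13 genes took 37.5% of its reads on genes, against 3.39% to 6.26% in the other 11 (median 5.53%), and a Wilson 95% interval of any library is within 0.0234 percentage points of its value. Per 100 reads on all other genes this is 59.97 reads in WT chow 3 and 3.51 to 6.68 in the others. Being above all 11 other libraries was seen for 21.8% of the tested genes in WT chow 3. The excess was unequal from gene to gene. In this library mt-Nd1, a core subunit of the membrane arm of complex I, was at 95832 FPKM, against 4224 to 9408 FPKM elsewhere, which is 12.0 times the median of the other 11. mt-Nd5 was at 19202 FPKM against 663 to 3040 FPKM (10.6 times), and mt-Nd2 at 48956 FPKM against 3017 to 6720 FPKM (8.18 times). The excess was lower for 4 of the remaining genes: 5.43 times for mt-Cytb, 5.12 times for mt-Nd4 and for mt-Nd6, and 5.02 times for mt-Co1.

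The makeup of the mitochondrial transcripts therefore differed too. As a share of the summed FPKM of the 13 genes, mt-Nd1 was 29.8% in WT chow 3 and 13.5% to 18.4% in the other 11 libraries. mt-Co1 was 21.1% there, with a median of 28.7% in the others, and mt-Cytb 15.0% with a median of 20.02%. mt-Co1 ranked first in 10 of the 12 libraries, mt-Nd1 in WT chow 3 and mt-Cytb in WT chow 2. Among the copied genes the excess of WT chow 3 was 12.8 times for mt-Nd4l, 9.26 for mt-Nd3, 9.09 for mt-Co2, 6.50 for mt-Atp6 and 4.87 for mt-Co3. Their copies were raised there as well, by factors of 15.4 for Gm10222, 5.84 for Gm28438, 8.94 for Gm28661, 7.02 for Gm10925 and 4.99 for Gm28437. In a bulk sample a larger share of cells rich in mitochondria and more mitochondrial RNA per cell cannot be told apart, and the part of the brown fat markers given above in this result was not tested.

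WT chow 2 had the lowest share of reads on the 13 genes, 3.39%, and an uneven pattern. Relative to the median of the 10 libraries, mt-Co1 stood at 0.456, mt-Nd2 at 0.489, mt-Nd1 at 0.526 and mt-Nd5 at 0.347. mt-Cytb stood at 0.786 and mt-Nd4 at 0.825. Against these low values, mt-Nd6 stood at 1.62 and the copied genes mt-Co2, mt-Co3, mt-Nd3 and mt-Atp6 at 2.56, 1.97, 1.68 and 1.41, while mt-Nd4l, with 5 reads, stood at 0.140. In all, 4 of the 12 tested members were above all 10 libraries and 6 were below all 10. Of all tested genes, 31.4% were above and 34.2% below. The genes that were above all 10 in WT chow 2 had a median length of 2243 bases and those below 3490 bases, with 2876 bases for all tested genes. Whether length has a part in the pattern of the 13 genes was not tested.

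**Figure D3:**
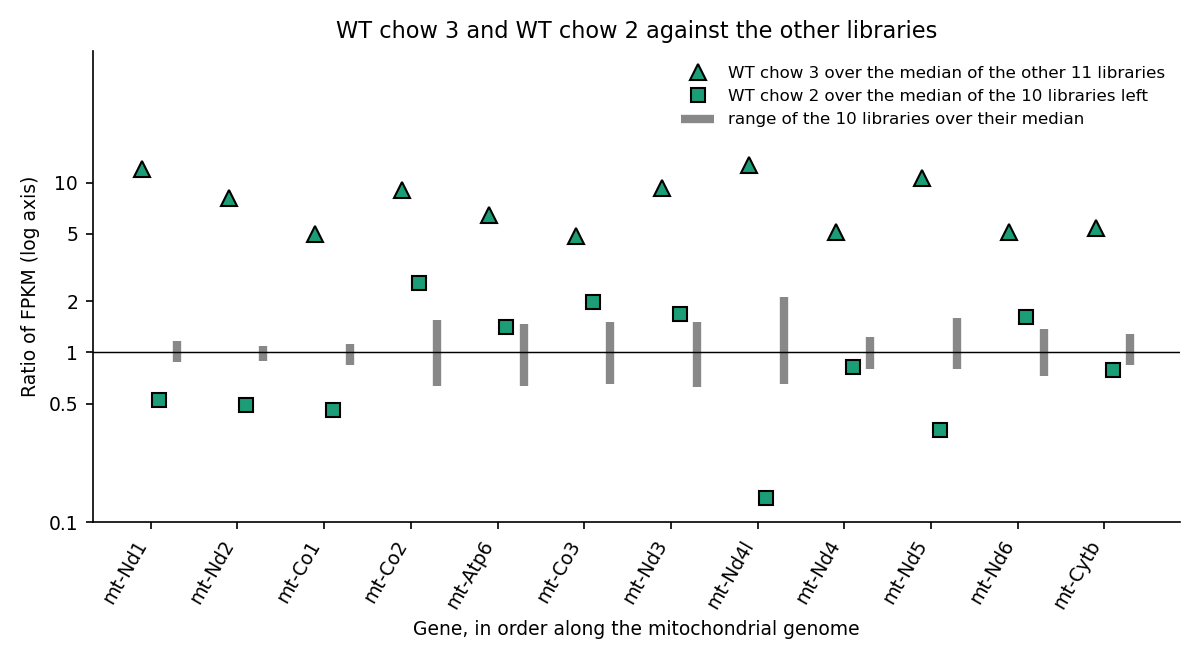
Ratio of FPKM (log axis) for the 12 tested genes in genome order: triangles are WT chow 3 over the median of the other 11 libraries, squares are WT chow 2 over the median of the 10 libraries left, and grey bars are the range of those 10 over their median. The triangles lie between 4.87 and 12.8, and the squares between 0.140 and 2.56.

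The comparisons between groups ask whether the labelled genotype or the high fat diet goes with a change of these genes. As a share of reads on genes the 13 genes took 5.71% ± 0.463 in WT HFD (SD, n = 3), 5.66% ± 0.528 in KO chow and 5.71% ± 0.533 in KO HFD. WT chow 1, the only library of its group that was not set apart, had 5.70%. The group means thus lay closer together than the libraries within a group. The WT chow mean of 15.5% ± 19.1 is set by WT chow 3.

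With all 12 libraries in 1 fit (limma on log2(FPKM + 1), Benjamini-Hochberg over 12251 genes, threshold 0.05), none of the 12 tested genes passed in any of the 5 comparisons. The share of all tested genes that passed was 0.0% for KO chow against WT chow and for WT HFD against WT chow, 0.155% for KO HFD against WT HFD and for KO HFD against KO chow, and 0.122% for the interaction of diet and genotype. At an unadjusted p under 0.05, 4 of the 12 stood in KO chow against WT chow, 1 in WT HFD against WT chow, 2 in the interaction and 0 in the other comparisons. Over all 12251 genes those counts were 2584, 1807 and 2038, and 156 and 924 in KO HFD against WT HFD and against KO chow. limma-voom on the reads behind the values passed 0 of them as well. Without WT chow 3, 0 of the 12 passed, beside 0.0% to 0.155% of all genes (0.114% in the interaction). The comparisons share groups, so their values are set side by side and are not independent.

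KO chow against WT chow turned on the libraries set apart. With 12 libraries 11 of the 12 genes had negative differences, with a median of -0.84 on the log2 scale against 0.08 for all tested genes. mt-Co2, a copper-carrying subunit of complex IV, had the smallest p, with a log2 difference of -1.84 (SE 0.62, limma adjusted p = 0.19). It was at 65.5, 46.4 and 63.9 FPKM in KO chow and at 72.9, 188 and 671 FPKM in WT chow. The groups of mt-Co2, mt-Atp6 and mt-Co3 did not overlap, with KO chow lower, which was so for 4.43% of all tested genes; 0 members were higher without overlap, against 12.4% of tested genes. mt-Co1, at 15303, 13469 and 14644 FPKM against 14714, 6220 and 67611 FPKM, differed by -0.35 (SE 1.05, limma adjusted p = 0.86). mt-Nd6 differed by -1.26 (SE 0.77, limma adjusted p = 0.34), at 4066, 2958 and 3038 FPKM against 3649, 6599 and 20993 FPKM.

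Without WT chow 3 the median of the 12 differences was 0.07, and mt-Co1 turned to 0.60. With the 10 libraries the WT chow group is WT chow 1 alone, whose spread is taken from the other groups, the median was -0.08 and 0 of the 12 genes passed, beside 0.00816% of all genes. Leaving out WT chow 1, so that WT chow 2 and WT chow 3 stand for the group, made 4 of the 12 genes pass (mt-Co2, mt-Atp6, mt-Co3 and mt-Nd3, all lower in KO chow), beside 2981 of the 12251 genes. The sign of the median and of mt-Co1 thus turned with the WT chow libraries that entered, while mt-Co2 and mt-Nd6 stayed negative, at -0.33 and -0.14 with the 10 libraries.

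WT HFD against WT chow rested on the same libraries. All 12 genes had negative differences (median -0.84, all genes 0.02), and mt-Co2 again had the smallest p, at 73.8, 74.4 and 68.4 FPKM in WT HFD, with a difference of -1.53 (SE 0.62, limma adjusted p = 0.32). mt-Atp6, a membrane subunit of the ATP synthase, was the only one whose groups did not overlap, with WT HFD lower (63.3, 59.7 and 58.1 FPKM against 65.0, 83.3 and 388 FPKM). Such a pattern was found for 4.35% of tested genes, and for 6.82% in the higher direction. mt-Co1 differed by -0.47 (SE 1.05, limma adjusted p = 0.84) and mt-Nd6 by -1.06 (SE 0.77, limma adjusted p = 0.49). Without WT chow 3 the median was 0.29 and mt-Co1 stood at 0.47. With the 10 libraries the median was 0.09 and mt-Nd6 stood at 0.07, and 0 of the 12 genes passed (0.00816% of all genes).

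KO HFD against WT HFD does not involve the libraries set apart, although they enter the estimate of spread. Of the 12 genes 9 had positive and 3 negative differences (median 0.13, all genes -0.03). mt-Nd4l, a small membrane subunit of complex I, had the smallest p, at 4.27, 5.45 and 4.20 FPKM in KO HFD and 6.16, 7.51 and 9.96 FPKM in WT HFD, with a difference of -0.64 (SE 1.01, limma adjusted p = 1.0). mt-Nd6 was at 5651, 4956 and 4991 FPKM in KO HFD and at 3212, 4236 and 4101 FPKM in WT HFD, a difference of 0.44 (SE 0.77, limma adjusted p = 1.0). mt-Co1 was at 12677, 13821 and 11435 FPKM against 12701, 15047 and 12207 FPKM, a difference of -0.07 (SE 1.05, limma adjusted p = 1.0), and the groups overlapped. The groups did not overlap for mt-Co2 and mt-Nd6, higher in KO HFD, and for mt-Nd4l and mt-Nd5, lower. That is 2 of 12 in each direction, where 7.37% of all tested genes were higher and 12.4% lower without overlap. The values of mt-Nd4l rest on few reads, 23, 31 and 22 in KO HFD and 35, 39 and 52 in WT HFD. With the 10 libraries, whose spread is smaller, 0 of the 12 passed, as did 0.18% of all genes.

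KO HFD against KO chow gave the widest spread of values among the groups that hold 3 like libraries. mt-Nd3, a complex I subunit of the copied stretch, was at 23.3, 22.3 and 16.4 FPKM in KO HFD and at 13.3, 9.62 and 11.7 FPKM in KO chow. mt-Co2 was at 115, 91.1 and 80.6 FPKM against 65.5, 46.4 and 63.9 FPKM, and mt-Nd6 at 5651, 4956 and 4991 FPKM against 4066, 2958 and 3038 FPKM. In these 3 genes every KO HFD library was above every KO chow library. mt-Nd4l went the other way, at 4.27, 5.45 and 4.20 FPKM against 13.6, 8.95 and 6.65 FPKM, without overlap. Its values rest on few reads, 23, 31 and 22 in KO HFD and 65, 54 and 31 in KO chow. KO HFD 2 and KO chow 3 thus had the same 31 reads before scaling to depth. Such a separation was seen for 9.98% of tested genes in the higher direction and 21.6% in the lower, beside which the members' counts are 3 and 1 of 12.

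In the fit of all 12 libraries mt-Co3, at 95.7, 79.5 and 59.9 FPKM against 60.1, 40.9 and 53.8 FPKM, had the smallest p for this comparison (log2 difference 0.58, SE 0.49, limma adjusted p = 0.78). mt-Nd6 differed by 0.65 (SE 0.77, limma adjusted p = 0.86) and mt-Co1 by -0.20 (SE 1.05, limma adjusted p = 0.99). In the fit of the 10 libraries mt-Nd3 (0.78, SE 0.16, limma adjusted p = 0.036) and mt-Co2 (0.69, SE 0.18, limma adjusted p = 0.047) passed and were higher in KO HFD, beside 7.76% of all genes in either direction and 1.52% in the higher one. Gm28661, the copy identical to mt-Co2, passed likewise (0.73, SE 0.18, limma adjusted p = 0.045). Leaving out 1 more library changed this count. It was 0 without KO HFD 1, KO HFD 2, KO chow 1, KO chow 2 or any of the WT HFD libraries, 1 (mt-Nd3) without KO HFD 3, and 3 (mt-Co2, mt-Nd3 and mt-Nd4l) without KO chow 3. The count over all genes, 951 with the 10 libraries, moved between 17 and 1535 in the same steps.

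Ratios within a library do not depend on its depth. The ratios of named pairs in this paragraph were chosen after the levels had been seen and carry no test. mt-Nd6 over mt-Nd5 was 3.69, 2.76 and 3.23 in KO HFD. It was 1.77, 1.76 and 1.65 in WT HFD, 1.34, 1.10 and 1.75 in KO chow, 1.81 in WT chow 1, 9.95 in WT chow 2 and 1.09 in WT chow 3. The 3 KO HFD libraries were thus above every library but WT chow 2. As a percent of the summed level of the other 6 remaining genes, mt-Nd6 was 13.1, 10.5 and 12.9 in KO HFD, 7.35 to 9.87 in the other 7 of the 10 libraries, 27.3 in WT chow 2 and 7.03 in WT chow 3. mt-Co2 over mt-Nd4l was 26.8, 16.7 and 19.2 in KO HFD, against 4.84 to 13.3 in the other 7 of the 10, with 210 in WT chow 2 and 8.53 in WT chow 3. The mt-Nd4l values in this ratio rest on 22 to 65 reads in the 10 libraries and on 5 in WT chow 2.

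Other values moved with the KO HFD group. The tested genes that were higher in all KO HFD than in all KO chow libraries had a median length of 1343 bases, and those that were lower 4497 bases. Of the members, mt-Nd6 has 519 bases, mt-Co2 684 and mt-Nd3 348, while mt-Nd5 has 1824; mt-Nd4l, with 297 bases, was lower. The summed level of 10 exocrine pancreas markers was 96.6, 60.7 and 59.7 FPKM in the KO HFD libraries, and none of the other 9 exceeded 5.03 FPKM. The part of length or of pancreas transcripts in these results was not tested.

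**Figure D4:**
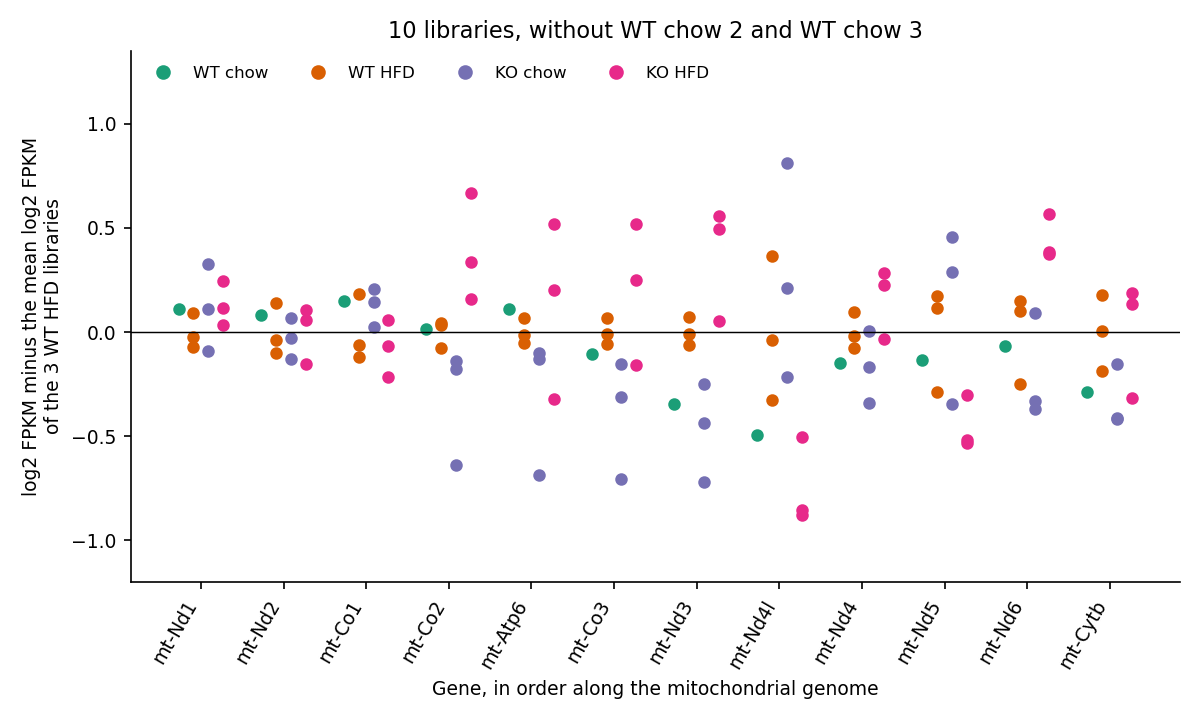
Log2 FPKM of the 12 tested genes in genome order, minus the mean log2 FPKM of the 3 WT HFD libraries, 1 point per library, for the 10 libraries without WT chow 2 and WT chow 3. The KO HFD points of mt-Co2, mt-Nd3 and mt-Nd6 lie above the KO chow points and those of mt-Nd4l below them. For mt-Nd1, mt-Nd2 and mt-Co1 the ranges of WT HFD, KO chow and KO HFD overlap.

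The interaction asks whether the diet difference is unlike in the genotypes. With 12 libraries 10 of the 12 genes had positive values (median 0.98, all genes -0.10). mt-Co2 had the smallest p (2.22, SE 0.88, limma adjusted p = 0.29). mt-Nd6 stood at 1.70 (SE 1.09, limma adjusted p = 0.40) and mt-Co1 at 0.27 (SE 1.49, limma adjusted p = 0.93). Without WT chow 3 the median was 0.01 and mt-Co1 stood at -0.67. With the 10 libraries the median was 0.15, mt-Co1 stood at -0.05 and 0 of the 12 passed, beside 0.0816% of all genes.

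The nuclear genes that work with the mitochondrial genome were read from lists of 96 tested genes. None passed in any comparison with 12 libraries, and at an unadjusted p under 0.05 the counts were 26 in KO chow against WT chow, 9 in WT HFD against WT chow, 4 in KO HFD against KO chow, 0 in KO HFD against WT HFD and 26 in the interaction, beside 2584, 1807, 924, 156 and 2038 of the 12251 genes. Leaving out WT chow 1 made 34, 22 and 28 of them pass in the 3 comparisons that use WT chow, beside 2981, 2435 and 2265 of all genes. Tfam was at 11.3, 8.83 and 6.88 FPKM in WT chow, 12.5, 12.0 and 11.2 FPKM in WT HFD, 13.7, 12.5 and 13.8 FPKM in KO chow and 11.4, 11.6 and 9.43 FPKM in KO HFD. By FPKM, WT chow 3, the library with the most mitochondrial reads, was the lowest of the 12 for Tfam. FPKM divides by all reads on genes, and the 13 mitochondrial genes took 37.5% of them in WT chow 3. This lowers the FPKM of its nuclear genes, and its rank for Tfam per nuclear read is not given here. Polrmt was at 5.46, 9.06 and 10.98 FPKM in WT chow, 5.58, 4.87 and 4.44 FPKM in WT HFD, 4.98, 6.03 and 5.33 FPKM in KO chow and 5.49, 3.92 and 5.09 FPKM in KO HFD. WT chow 3 was the highest for this gene.

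Lrpprc was at 25.2, 5.30 and 34.7 FPKM in WT chow, 31.6, 27.7 and 29.4 FPKM in WT HFD, 31.5, 32.2 and 29.6 FPKM in KO chow and 17.4, 26.1 and 19.1 FPKM in KO HFD. Its partner Slirp was at 3.16, 12.6 and 3.46 FPKM in WT chow, 2.42, 3.18 and 2.27 FPKM in WT HFD, 1.49, 1.57 and 2.97 FPKM in KO chow and 6.25, 4.75 and 4.07 FPKM in KO HFD. WT chow 2 was lowest for Lrpprc and highest for Slirp. Of all tested genes, 34.2% were below and 31.4% above the 10 libraries left in WT chow 2. Each KO HFD library was below every KO chow library for Lrpprc and above every one for Slirp. Such a separation was seen for 21.6% of tested genes in the lower direction and 9.98% in the higher. Ppargc1a, a coactivator that raises mitochondrial gene expression and a brown fat marker here, was at 15.5 FPKM in WT chow 3, with the other 11 libraries between 0.859 and 1.61 FPKM.

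In KO HFD against KO chow with the 10 libraries, 7 of the 96 nuclear genes passed, beside the 7.76% of all genes. Higher in KO HFD were Atp5e (1.20, SE 0.24, limma adjusted p = 0.033) and Atp5j2 (0.94, SE 0.23, limma adjusted p = 0.042), subunits of the ATP synthase, Uqcrq (0.86, SE 0.22, limma adjusted p = 0.049) of complex III, Slirp (1.02, SE 0.22, limma adjusted p = 0.036) and Hsd17b10 (0.63, SE 0.13, limma adjusted p = 0.034), a subunit of the enzyme that frees the 5′ ends of transfer RNAs. Lower were Gabpa (-0.70, SE 0.15, limma adjusted p = 0.037), a transcription factor of nuclear genes for mitochondria, and Polg (-0.51, SE 0.13, limma adjusted p = 0.049), the polymerase that replicates mitochondrial DNA. By list, all 10 complex IV subunits (median 0.64), all 9 of complex III (0.68) and all 15 of complex V (0.53) had positive differences, against -0.06 for all tested genes; 0, 1 and 2 of them passed. The other lists were mixed: 6 of 7 genes of the complex I core (median 0.45) and 3 of 4 of complex II (0.25) had positive differences, with Ndufs1 at -0.38 and Sdha at -0.41. Positive differences were fewer among the transcription regulators (4 of 16, median -0.14), the RNA processing factors (6 of 19, median -0.10) and the replication genes (5 of 13, median -0.03). The tested genes higher in all KO HFD than in all KO chow libraries had a median length of 1343 bases, and those lower 4497 bases. Whether length has a part in these lists was not tested. Counted in either direction, the share of the 96 genes that passed was near that of all genes. By direction the shares differed. Most of the 7 nuclear genes that passed were higher in KO HFD, whereas most of all genes that passed were lower. Calls in this fit changed when a further library was left out, as given above.

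The summed FPKM of the nuclear subunits of complexes I, III, IV and V peaked in another library than the mitochondrial reads. FPKM divides by all reads on genes, of which the 13 mitochondrial genes took 37.5% in WT chow 3 and 3.39% in WT chow 2. The nuclear sums of WT chow 3 are lowered by this, and peaks per nuclear read were not compared. For the 10 complex IV subunits the sums were 15319 FPKM in WT chow 2, 8870 FPKM in WT chow 3, 7978 FPKM in KO HFD 1 and 3164 to 5364 FPKM in the other 9. WT chow 2, with the lowest share of reads on the mitochondrial genome, was also highest for complex III (8046 FPKM), the complex I core (2026 FPKM) and complex V (11307 FPKM). In WT chow 3 those sums were 4403, 1495 and 6594 FPKM, or 1.58, 1.87 and 1.51 times the median of the other 11 libraries, where the 12 tested mitochondrial genes stood at 4.87 to 12.8 times. Complex II, whose subunits are all nuclear, did peak in WT chow 3, at 1299 FPKM, which is 1.95 times the median of the others. The tissue isoforms of complex IV, led by Cox8b and Cox7a1, summed to 5813 FPKM in WT chow 3, against 5.4 to 89.8 FPKM elsewhere; both genes are also among the brown fat markers.

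**Figure D5:**
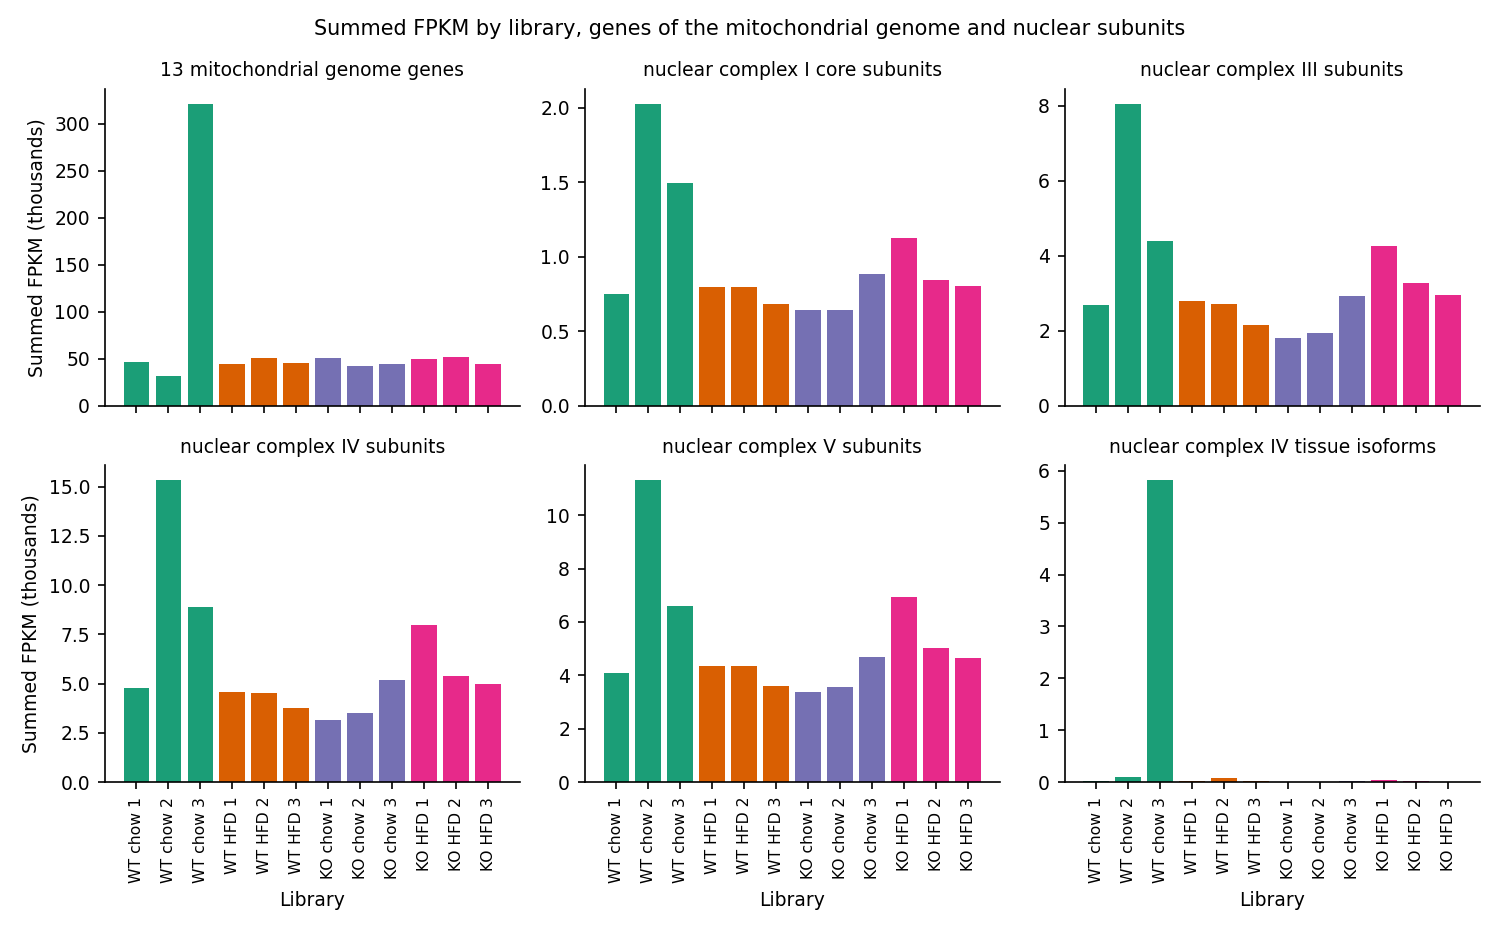
Summed FPKM (bars from 0) in each of the 12 libraries, coloured by group, for the 13 genes of the mitochondrial genome and for 5 lists of nuclear subunits. The first panel peaks in WT chow 3, the nuclear panels of complexes I, III, IV and V in WT chow 2, and the tissue isoforms of complex IV in WT chow 3.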

How the data were processed

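Total RNA of 12 mouse samples labelled liver was sequenced by the authors, who deposited 1 table of FPKM values per gene. The submitters' processing notes name CASAVA, TopHat, STAR, HTSeq 0.6.1, DESeq2 and GRCm38, with no role for each. The FPKM were relative to the reads summed over the table's genes, and all values gave whole reads within 0.1 read, so depth was recovered (15705196 to 20311766 reads on genes). Columns not mapped to a sample numbered 0. Copies were searched in the GENCODE M21 transcripts (GRCm38), whose coordinates matched all 13 genes; ribosomal and transfer RNA genes were not analysed here.

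Genes with a mean of at least 0.5 FPKM (12251) were tested with limma 3.58.1 (R 4.3.3) on log2(FPKM + 1), in 1 fit of 12 libraries with 4 group means and 5 comparisons, and Benjamini-Hochberg adjusted p at 0.05; fold changes of low genes are understated on this scale. The fit was also run on 12 simulated libraries that were alike apart from genes raised in KO HFD. No simulated library stood apart as WT chow 2 and WT chow 3 do, so that run does not cover their effect on the spread. Alternatives were the pseudocount, the filter, TPM, quantile and other scalings, limma-voom on the recovered reads, array weights, a replicate block and left-out libraries. In each comparison mt-Co1, mt-Nd6 and the member with the smallest p are named. The members and lists were chosen with earlier results of these data known. Replicates are biological per the series text. Tables were made with Python 3.11.15, pandas 2.3.3 and Biopython 1.88.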

Additional observations from a re-analysis of the deposited data

How the results depend on the processing

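WT chow 3 stayed highest and WT chow 2 lowest in the share of the 13 genes under other denominators, while some libraries between them changed places. As a percent of summed FPKM it was 53.5 in WT chow 3 and 4.51 to 9.52 in the other 11 libraries, and as a percent of reads on protein-coding genes 37.8 against 3.44 to 6.39. Without length scaling mt-Nd1 was 24.5% of the members in WT chow 3, with a median of 13.5% in the others.

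For KO HFD against KO chow, 1 member (mt-Nd3) passed with array weights in limma and 2 with 10 libraries, where 0 passed with 12; of the nuclear genes 17 passed with array weights and 7 with 10 libraries. All-gene calls in that comparison were 19 with 12 libraries, 2420 with array weights, 951 with 10 libraries, 3 with a mean of at least 2 FPKM and 31 without a filter. In KO HFD against WT HFD they were 19, with 33 under array weights and 3 under the higher filter. In the interaction they were 15, with 1 under the higher filter, 4 with the replicate block, 5 and 6 with pseudocounts of 10 and 0.1, 7 with array weights, 25 without a filter and 0 with limma-voom. The median of the members in WT HFD against WT chow was 0.29 with 11 libraries.

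The sign of mt-Co1 turned in KO chow against WT chow to 0.35 (quantile) and 0.60 (11 libraries), in WT HFD against WT chow to 0.063 and 0.47, and in the interaction to -0.036 (TPM), -0.60 (quantile), -0.079 (array weights), -0.67 (11 libraries) and -0.047 (10 libraries). mt-Nd6 turned to 0.067 in WT HFD against WT chow with 10 libraries. The causes were not tested. TPM moved the median of all genes from -0.06 to -0.23 in KO HFD against KO chow and from -0.10 to -0.37 in the interaction. In KO HFD against WT HFD the members' median was 0.13, 0.01 as TPM and -0.02 after quantile normalization.

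Leaving out 1 library gave 0 to 4 members called in KO chow against WT chow, 0 to 3 in WT HFD against WT chow and 0 to 3 in the interaction, and 0 to 34, 0 to 22 and 0 to 28 nuclear genes; the highest counts came without WT chow 1, when 2981, 2435 and 2265 of all genes passed. In KO HFD against WT HFD and against KO chow the counts were 0 to 0. The members' medians ranged from -1.42 to 0.07, 0.06 to 0.22, -1.38 to 0.29, 0.24 to 0.45 and 0.01 to 1.61, in the order KO chow against WT chow, KO HFD against WT HFD, WT HFD against WT chow, KO HFD against KO chow and interaction. In that order mt-Co1 ranged from -1.13 to 0.60, -0.14 to 0.018, -1.25 to 0.47, -0.26 to -0.13 and -0.67 to 1.05, and mt-Nd6 from -1.83 to -0.56, 0.32 to 0.52, -1.62 to -0.36, 0.56 to 0.79 and 1.01 to 2.27. mt-Co2 ranged from -2.59 to -1.0 (KO chow against WT chow), -2.28 to -0.69 (WT HFD against WT chow) and 1.39 to 2.98 (interaction), mt-Nd4l from -0.78 to -0.48 (KO HFD against WT HFD) and mt-Co3 from 0.43 to 0.76 (KO HFD against KO chow).

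No pairing by replicate number was seen: the deviations of same-numbered libraries correlated at -0.504 to 0.131, with 2 of 18 pairs over 0.1. Libraries with unlike numbers correlated at -0.249 to 0.498, with 10 of 36 pairs over 0.1. With so few libraries in a group, this check cannot settle whether samples were paired. With the replicate block 0 members passed in each comparison and the medians stayed at -0.84, 0.13, -0.84, 0.33 and 0.98. Reads were few for mt-Atp8 (11 in all) and mt-Nd4l (5 to 385 per library), which both lie in the copied stretch. The cause of these low counts was not tested.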
